A study of Gallus gallus with 6 samples.

Results

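Genes of cholesterol and fatty acid synthesis were followed in cells recovered from the bursa of Fabricius, the chicken organ of B cell development, after a night on fibroblast monolayers. The set was named gene by gene from the pathway: 17 enzymes that lead from acetyl-CoA to cholesterol, 6 genes of sterol sensing and transport and 12 genes that supply, build, lengthen, desaturate or activate fatty acids. Of these 35 genes, 33 had at least 1 probe set that the array's annotation gives to that gene alone, 65 probe sets in all out of 38439 tested. IDI1 and EBP, both sterol enzymes, were not named by that annotation and were not analysed here. The rule for membership uses gene names and no measured value, and the set was drawn up with earlier results of these data known.

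The bursae came from line 0 chickens aged 3 weeks, and each culture received 2000000 bursal cells, kept overnight at 37 °C with 4% serum. The control group lay on DF-1 cells, a line of adherent chicken embryo fibroblasts, that carried the vector (Vector-DF1, 3 arrays). The SCA2 group lay on DF-1 cells with a Flag-tagged stem cell antigen 2 (SCA2Flag-DF1, 3 arrays), a small membrane-anchored protein. In both groups the cells were washed off the monolayer before RNA was isolated. The sources used here do not say which promoter drove SCA2, whether the monolayer was 1 clone, or whether bursae were pooled.

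Cholesterol is made from acetyl-CoA by way of mevalonate, squalene and lanosterol. Its genes are switched on together when sterols in the endoplasmic reticulum fall: SCAP then escorts the SREBP transcription factors, the products of SREBF1 and SREBF2, to the Golgi for cleavage, while the INSIG proteins hold them back when sterols are plentiful. SREBP proteins also switch on the enzymes of fatty acid synthesis, and dividing lymphocytes and fibroblasts both draw on these routes for new membrane.

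Each probe set gave 1 intensity per array, printed here as log2 intensity, and a change is the mean over the SCA2 arrays minus the mean over the control arrays. Intensities ran from 4.28 to 20715 before log2 was taken. Where a gene had several probe sets, that of the highest mean over the 6 arrays stands for it. For members of the set the others are given where they differ. For genes outside the set only that probe set is reported. "Rose" and "fell" are used for changes with an adjusted p under 0.05 in limma, adjusted over all 38439 probe sets. A log2 intensity of 4.95 is used as a mark of background, the level under which 95% of the values of 744 probe sets with no gene name and no chicken transcript cluster lay. The arrays correlated with r of 0.990 to 0.997 within a group and of 0.962 to 0.980 across groups. Of all 38439 probe sets 35.3% passed the test in either direction, and each count is read against that background. CD79B, a chain of the B cell receptor complex, measured 12.78, 12.70 and 12.77 on control arrays 1, 2 and 3 and 11.37, 11.27 and 11.54 on SCA2 arrays 1, 2 and 3, far above the background mark in both groups. Since these are bulk samples, fewer cells of a type and less RNA per cell cannot be told apart.

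Most of the set was higher with SCA2. Of the 33 measured genes, 25 rose, 1 fell and 7 did not pass the test. Among all 13009 named genes, each with 1 probe set, 26.2% rose and 20.8% fell. All 15 measured sterol enzymes of the set rose, as did 8 of the 12 fatty acid genes and 2 of the 6 genes of sensing and transport. ME1, which makes NADPH from malate, was the member that fell. Groups were fully separated, with every SCA2 array above every control array, for 26 of the 33 genes, against 32.6% of named genes, and reversed in order for 2, against 28.7%. At least 2-fold rises were seen for 5 sterol enzymes and 1 fatty acid gene, against 5.86% of named genes, and 1 member, ME1, fell at least 2-fold, against 5.43%.

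**Figure D1:**
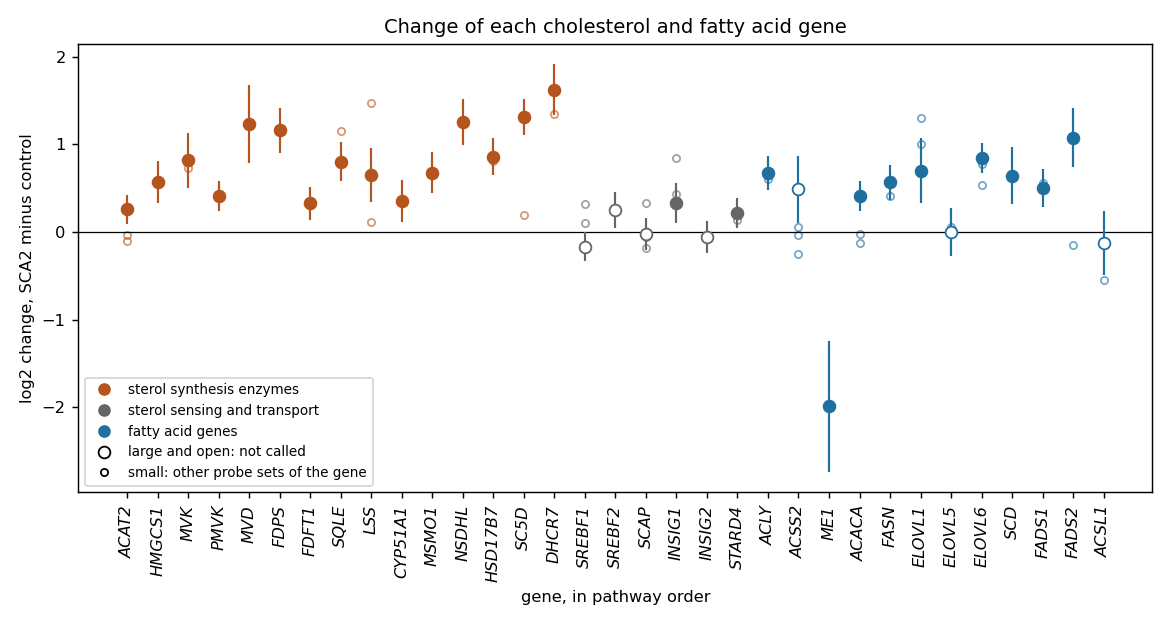
Log2 change (SCA2 minus control, y axis) of each measured gene in pathway order (x axis). Large points are the representative probe set with its 95% confidence interval from limma, filled where adjusted p was under 0.05, and small open points are the gene's other probe sets. The 15 sterol enzymes lie between 0.26 and 1.63, while the fatty acid genes run from -1.99 for ME1 to 1.08 for FADS2.

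The route to mevalonate and its activated product was higher at each of 5 measured steps, with a median log2 change of 0.57. ACAT2, the cytosolic thiolase that joins acetyl-CoA units, measured 11.25, 11.24 and 11.32 on control arrays 1, 2 and 3 and 11.55, 11.53 and 11.50 on the SCA2 arrays. Its values were tight in both groups, and the rise was small at 0.26 (SE 0.07; limma adjusted p = 0.0247). HMGCS1, which makes HMG-CoA, measured 10.58, 10.77 and 10.84 in the controls and 11.30, 11.43 and 11.17 with SCA2, a change of 0.57 (SE 0.10; adjusted p = 0.00478). MVK and PMVK are the kinases that phosphorylate mevalonate in turn. For MVK the control values were 8.83, 8.43 and 8.70 and the SCA2 values 9.66, 9.32 and 9.43, a rise of 0.82 (SE 0.13; adjusted p = 0.00275). A second MVK probe set rose by 0.73. PMVK went from 9.07, 9.20 and 9.14 to 9.53, 9.60 and 9.52, a rise of 0.41 (SE 0.07; adjusted p = 0.00445).

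MVD, the decarboxylase that yields isopentenyl pyrophosphate, had the largest change of these 5 genes. It stood at 8.90, 8.16 and 8.73 on control arrays 1, 2 and 3 and at 9.99, 9.71 and 9.81 on the SCA2 arrays, 2.36-fold higher (log2 change 1.24, SE 0.19; limma adjusted p = 0.00211). The lowest of the 6 values was that of control 2, and the groups did not overlap. Of these 5 rises that of ACAT2 was the least firm. Its other 2 probe sets changed by -0.03 and -0.10, neither called. The call was lost without control 1 (limma adjusted p = 0.0538), control 2 (0.0598), SCA2 1 (0.0874), SCA2 2 (0.0632) or SCA2 3 (0.0674), after a second quantile normalization (0.0706) and after cyclic loess (0.136). It was also lost with the mean of all its probe sets.

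The steps from isoprenoids to lanosterol were also higher, with a median of 0.73 over 4 measured genes. FDPS, which makes farnesyl pyrophosphate for sterols and for protein prenylation, measured 9.71, 9.35 and 9.66 in the controls and 10.77, 10.77 and 10.65 with SCA2. This was 2.24-fold higher (log2 change 1.16, SE 0.11; limma adjusted p = 0.00025), with a gap between the groups wider than the spread within either. FDFT1, squalene synthase and the first enzyme that commits the route to sterols, moved least, from 9.83, 9.68 and 9.86 to 10.09, 10.15 and 10.11 (log2 change 0.33, SE 0.08; adjusted p = 0.0158). Its call was lost without SCA2 3 (limma adjusted p = 0.056) and after cyclic loess (0.0737).

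SQLE, squalene epoxidase and a slow step of the pathway, rose by 0.80 (SE 0.09; limma adjusted p = 0.000608). It measured 11.27, 10.99 and 11.07 on the control arrays and 11.87, 11.96 and 11.91 on the SCA2 arrays, and a second probe set rose by 1.15. LSS, which closes the ring to lanosterol, went from 10.35, 9.90 and 10.34 to 10.83, 10.91 and 10.81, a rise of 0.65 (SE 0.13; adjusted p = 0.00704). The other LSS probe sets gave different sizes of change. A dimmer one rose by 1.47 and the dimmest changed by 0.12, not called.

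The largest rises among the sterol enzymes of the set lay after lanosterol, where 6 measured genes had a median change of 1.06. LBR, which also has sterol reductase activity, lies outside the set and changed by -1.03 (limma adjusted p = 0.000103). DHCR7, the reductase that makes cholesterol from its immediate precursor, measured 10.81, 10.52 and 10.93 on control arrays 1, 2 and 3 and 12.48, 12.25 and 12.40 on SCA2 arrays 1, 2 and 3. It rose 3.09-fold (log2 change 1.63, SE 0.12; limma adjusted p = 9.92e-05), more than 98.5% of named genes. Its second probe set lay under the background mark in all 3 controls, at 4.71, 4.64 and 4.66, and stood at 5.95, 6.07 and 6.03 with SCA2, so that change of 1.35 is set against background. SC5D, the desaturase one step earlier, measured 8.70, 8.61 and 8.84 against 10.05, 10.09 and 9.96, a rise of 1.32 (SE 0.09; adjusted p = 6.02e-05). Both groups of SC5D were narrow. Its second, dimmer probe set changed by 0.20 and was not called.

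NSDHL and HSD17B7 work together with MSMO1 to strip methyl groups from the sterol ring. NSDHL stood at 10.43, 10.04 and 10.27 in the controls and at 11.60, 11.40 and 11.50 with SCA2, 2.39-fold higher (log2 change 1.25, SE 0.11; limma adjusted p = 0.000195). HSD17B7 went from 8.82, 8.85 and 8.83 to 9.86, 9.58 and 9.66, a rise of 0.86 (SE 0.09; adjusted p = 0.000375), and a second probe set rose by 0.81. MSMO1 measured 12.57, 12.29 and 12.42 against 13.21, 13.02 and 13.08, a rise of 0.68 (SE 0.10; adjusted p = 0.00171). In each of these genes the lowest SCA2 array stood above the highest control array. CYP51A1, the demethylase that acts on lanosterol, was near background. It measured 5.11, 4.86 and 4.89 in the controls, of which 2 lay below the mark of 4.95, and 5.42, 5.18 and 5.32 with SCA2, a change of 0.35 (SE 0.10; adjusted p = 0.0341). This call was lost without control 2 (limma adjusted p = 0.0929), control 3 (0.0981), SCA2 1 (0.118) or SCA2 3 (0.101). It was also lost with unmoderated statistics.

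Control 2 was the lowest control array for 12 of the 15 sterol enzymes, and SCA2 1 was the highest SCA2 array for 9. Over all 13009 named genes, control 2 was the lowest control for 4867 and SCA2 1 the highest SCA2 array for 4317. Relative to the control mean, the 15 enzymes averaged 0.08, -0.14 and 0.06 on control arrays 1, 2 and 3 and 0.88, 0.80 and 0.79 on SCA2 arrays 1, 2 and 3. The difference between groups was therefore several times the spread within them. Without control 2, 13 of the 15 were called and the median change went from 0.80 to 0.71. In 12 of the 15 genes the call held under each of the 18 alternative settings, the exceptions being ACAT2, FDFT1 and CYP51A1. Representative probe sets of 5 of the 15 carry the suffix _s_at, which the array maker gives to sets whose probes match more than 1 transcript. So do those of 3 of the 12 fatty acid genes and 1 of the 6 genes of sensing and transport. Part of the signal of such sets may come from another gene or transcript.

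**Figure D2:**
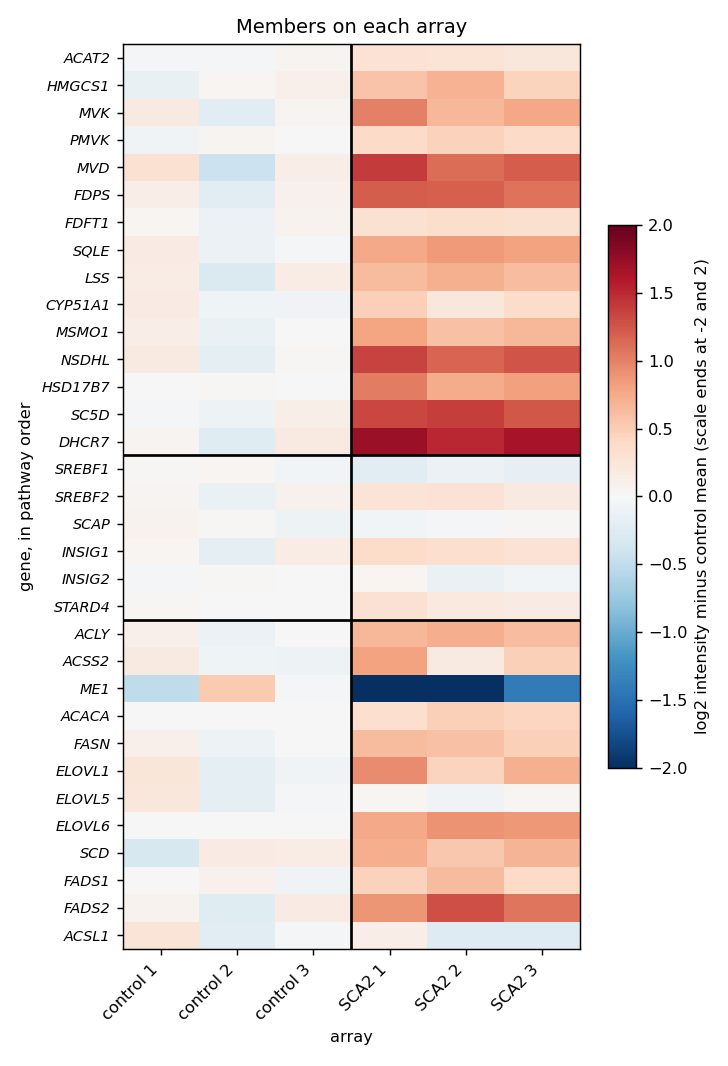
Log2 intensity minus the control mean (colour, red higher and blue lower) of 33 genes (rows, in pathway order) on each of the 6 arrays (columns). The sterol enzymes at the top are above the control mean on all 3 SCA2 arrays, and the sensing genes in the middle are pale. ACAT2, FDFT1 and CYP51A1 are about as pale as INSIG1. ME1 is the dark blue row, beyond the end of the colour scale on SCA2 1 and 2.

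The 6 genes of sterol sensing and transport had a median change of 0.10 by their brightest probe sets. Of these genes 2 rose and 0 fell, where 26.2% of all named genes rose and 20.8% fell. Nothing is read from these counts. Another probe set of INSIG1 rose by 0.84. SREBF2, whose protein mainly drives sterol genes, measured 11.65, 11.46 and 11.68 on the control arrays and 11.87, 11.88 and 11.78 on the SCA2 arrays. The groups did not overlap, and the change of 0.25 missed the threshold (95% interval 0.05 to 0.45; limma adjusted p = 0.061). It passed with 5 of the 18 alternatives, among them centring on the array median (limma adjusted p = 0.0394) and a variance trend with a robust fit (0.0152).

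SREBF1, whose protein mainly drives fatty acid genes, gave no single direction. Its brightest probe set measured 6.47, 6.48 and 6.40 in the controls and 6.23, 6.33 and 6.29 with SCA2, a change of -0.17 (95% interval -0.34 to 0.00; limma adjusted p = 0.114). Its dimmest of 3 probe sets rose by 0.32 (adjusted p = 0.0471) and the remaining one changed by 0.10. SCAP, the escort of the SREBP proteins, measured 7.96, 7.91 and 7.80 against 7.84, 7.86 and 7.91, a difference of -0.02 (95% interval -0.20 to 0.16). None of the 4 SCAP probe sets passed the test, and their unadjusted p-values lay between 0.0564 and 0.776.

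Of the INSIG genes, INSIG1 was called and INSIG2 was not, and the difference between them was not tested. INSIG1, itself switched on by SREBP proteins, measured 10.61, 10.38 and 10.71 in the controls and 10.93, 10.90 and 10.85 with SCA2, a rise of 0.33 (SE 0.10; limma adjusted p = 0.0363). Its other 2 probe sets rose by 0.44 (adjusted p = 0.0216) and 0.84 (adjusted p = 0.000317), so all 3 were called higher. INSIG2 measured 10.13, 10.17 and 10.16 against 10.20, 10.01 and 10.10, with overlapping groups and a difference of -0.05 (95% interval -0.23 to 0.13; adjusted p = 0.647). STARD4, a carrier of cholesterol between membranes, went from 9.95, 9.91 and 9.91 to 10.22, 10.12 and 10.09, a rise of 0.22 (SE 0.07; adjusted p = 0.0497). The dimmer STARD4 probe set changed by 0.14 and was not called (limma adjusted p = 0.338).

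Both calls depended on the arrays used when taken from the brightest probe set. For INSIG1 it was lost without control 1 (limma adjusted p = 0.0575), control 2 (0.0712), SCA2 1 (0.11), SCA2 2 (0.0844) or SCA2 3 (0.0826), and after a second quantile normalization (0.0806) or cyclic loess (0.127). With unmoderated statistics the INSIG1 call was lost too. The STARD4 call was lost when any of the 6 arrays was left out, with limma adjusted p-values of 0.0723, 0.0996 and 0.112 without control 1, 2 and 3 and of 0.169, 0.0892 and 0.0932 without SCA2 1, 2 and 3. It was also lost with the replicate block, a second quantile normalization, cyclic loess, the mean of all its probe sets and its most variable one.

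Fatty acid genes were higher at most steps but not at all. Of 12 measured genes 8 rose, 1 fell and 3 did not pass the test, with a median change of 0.54. Among all named genes 26.2% rose and 20.8% fell. Among the genes of supply, ACLY, which splits citrate into cytosolic acetyl-CoA for both sterols and fatty acids, measured 10.71, 10.51 and 10.63 in the controls and 11.28, 11.34 and 11.24 with SCA2. It rose by 0.67 (SE 0.08; limma adjusted p = 0.000783). A second ACLY probe set was called higher by 0.61 but lay under the background mark on all arrays. ACSS2, which makes acetyl-CoA from acetate, measured 6.18, 5.91 and 5.89 against 6.79, 6.17 and 6.47, with SCA2 2 inside the control range. Its change of 0.49 (95% interval 0.10 to 0.87; adjusted p = 0.0553) lay just outside the threshold and passed in 9 of the 18 alternatives, and its other 3 probe sets changed by -0.03, 0.05 and -0.25.

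ME1 moved the other way and by more than any other member. It measured 7.52, 8.55 and 8.01 on control arrays 1, 2 and 3 and 5.72, 5.76 and 6.63 on SCA2 arrays 1, 2 and 3. It fell by 1.99 on the log2 scale, 3.97-fold lower (SE 0.32; limma adjusted p = 0.00264), with the groups fully apart. The highest control was control 2 and the highest SCA2 array was SCA2 3. The same arrays were highest in their groups for the mean of the epithelium markers, at -0.22, 0.24 and -0.02 on the controls and -1.29, -1.28 and -0.77 on the SCA2 arrays relative to the control mean. They were also highest for the macrophage markers, at -0.07, 0.11 and -0.04 on the controls and -1.29, -1.39 and -1.03 on the SCA2 arrays. For the B cell markers they were again highest, at -0.03, 0.04 and 0.00 on the controls and -1.13, -1.21 and -1.01 on the SCA2 arrays. The mean over all 13009 named genes was also highest on control 2 (0.01) and SCA2 3 (0.03). Other marker lists had other orders. T cell markers were highest on control 3 (0.08) and SCA2 1 (-0.98), and erythroid and thrombocyte markers on control 3 (0.10) and SCA2 2 (-0.84). Adipocyte markers were highest on control 2 (0.08) and SCA2 2 (-0.89), and fibroblast markers on control 3 (0.02) and SCA2 3 (1.10). The part of any cell type in the ME1 values was not tested.

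The enzymes that build the chain both rose. ACACA, acetyl-CoA carboxylase, which makes malonyl-CoA, went from 8.88, 8.88 and 8.90 to 9.23, 9.36 and 9.32 (log2 change 0.41, SE 0.07; limma adjusted p = 0.00392). Its other 2 probe sets, at lower intensities, changed by -0.02 and -0.12, and the mean of all 3 was not called (0.09; limma adjusted p = 0.227). FASN, fatty acid synthase, measured 10.86, 10.66 and 10.75 in the controls and 11.40, 11.34 and 11.24 with SCA2, a rise of 0.57 (SE 0.09; adjusted p = 0.00201), and its second probe set rose by 0.41.

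Elongation genes were divided. ELOVL6, which lengthens palmitate, measured 10.14, 10.15 and 10.16 on the control arrays and 10.92, 11.05 and 11.01 on the SCA2 arrays, a rise of 0.84 (SE 0.07; limma adjusted p = 0.000163), and its other 2 probe sets rose by 0.53 and 0.78. ELOVL1, which makes very long saturated chains, went from 9.83, 9.41 and 9.50 to 10.53, 10.03 and 10.29, a rise of 0.70 (SE 0.16; adjusted p = 0.0121). Its other 2 probe sets changed by 1.00, not called, and 1.30, called. The call on the brightest was lost with unmoderated statistics (adjusted p = 0.0712 by an ordinary t test). ELOVL5, which lengthens polyunsaturated chains, measured 11.46, 11.03 and 11.20 against 11.27, 11.16 and 11.26. Its difference was 0.00, with a 95% interval of -0.27 to 0.27, so a change the size of that of ELOVL6 lay outside the interval.

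The desaturases rose at all 3 genes. SCD, which places the first double bond in saturated chains, measured 6.16, 6.64 and 6.61 in the controls and 7.19, 7.00 and 7.15 with SCA2, a rise of 0.65 (SE 0.14; limma adjusted p = 0.0104). This call was lost with unmoderated statistics (adjusted p = 0.0613 by an ordinary t test). FADS1 and FADS2 desaturate polyunsaturated chains. FADS1 went from 6.21, 6.31 and 6.15 to 6.69, 6.86 and 6.63 (log2 change 0.50, SE 0.09; adjusted p = 0.00472), and its second probe set rose by 0.56. FADS2 went from 6.86, 6.54 and 6.96 to 7.66, 8.07 and 7.86, 2.11-fold higher (log2 change 1.08, SE 0.14; adjusted p = 0.00112). A second FADS2 probe set lay under the background mark on all arrays and was not called. ACSL1, which activates long chains for use in lipids or oxidation, measured 7.99, 7.52 and 7.70 against 7.88, 7.48 and 7.48, a difference of -0.13 (95% interval -0.49 to 0.24; adjusted p = 0.575). Its dimmer probe set fell by 0.54 (adjusted p = 0.00685).

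Set side by side, the sterol steps had the higher median. The median log2 change was 0.80 over the 15 sterol enzymes, 0.54 over the 12 fatty acid genes and -0.01 over all named genes. Of the sterol enzymes 11 lay above the fatty acid median, and 2 fatty acid genes, ELOVL6 and FADS2, lay above the sterol median. Mean values relative to the control mean were 0.34, 0.26 and 0.34 for the fatty acid genes on SCA2 arrays 1, 2 and 3, where the sterol enzymes had 0.88, 0.80 and 0.79. Those fatty acid means include ME1, which lowers them and so widens their gap to the sterol means. Without ME1 the remaining 11 genes ran from -0.13 to 1.08 with a median of 0.57. The difference of the medians, 0.27, went to 0.17 without control 2, 0.20 without SCA2 1, 0.18 without SCA2 2 and 0.18 after cyclic loess. No test was made of the difference between the lists.

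Over all probe sets in place of 1 per gene, 20 of 24 for the sterol enzymes, 5 of 14 for sensing and transport and 14 of 27 for the fatty acid genes rose, and 0, 0 and 2 fell, where 18.2% of all probe sets rose and 17.1% fell. Of 21 genes with several probe sets, 9 had all of them called higher and 0 had probe sets called in both directions. Among these 9, ACLY and DHCR7 have a second probe set that lay under the background mark on every control array.

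Genes around the 2 routes, listed from the pathway, are read against the 26.2% of named genes that rose and the 20.8% that fell. Among 13 other genes of sterol synthesis and sensing, 7 rose and 2 fell (median 0.27). TMEM97, a sterol-responsive membrane protein, measured 8.64, 8.11 and 8.48 in the controls and 9.84, 9.65 and 9.76 with SCA2, a rise of 1.34 (SE 0.14; limma adjusted p = 0.000367). ERLIN2, part of a complex that turns over sterol enzymes in the endoplasmic reticulum, rose by 0.58. LBR, an inner nuclear membrane protein that also has sterol reductase activity, fell from 11.91, 11.77 and 11.86 to 10.74, 10.87 and 10.84 (log2 change -1.03, SE 0.08; adjusted p = 0.000103). GGPS1, which draws farnesyl pyrophosphate off towards geranylgeranyl groups, changed by -0.52 (adjusted p = 0.00127).

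In the list of sterol uptake, storage and efflux 4 of 19 genes rose and 6 fell (median -0.11), against 26.2% and 20.8% of all named genes, and nothing is read from these counts. A further 4 genes of the list, not called, lay under the background mark on every control array. SCARB1, a lipoprotein receptor, went from 6.12, 6.58 and 6.25 to 7.80, 7.75 and 7.80 (log2 change 1.47, SE 0.12; limma adjusted p = 0.000143), and LRPAP1, a chaperone of lipoprotein receptors, rose by 0.60. MYLIP, a ubiquitin ligase that degrades lipoprotein receptors and is induced by the sterol-sensing LXR factors, measured 9.02, 9.40 and 9.18 in the controls and 7.38, 7.33 and 7.94 with SCA2 (log2 change -1.64, SE 0.18; adjusted p = 0.000438). VLDLR, the receptor for very low density lipoprotein, changed by -1.43 (adjusted p = 0.0025). NR1H3, which encodes an LXR factor, changed by -0.04 and was not called. It falls outside the naming rule and was chosen after its values were seen.

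Of 27 further genes of fatty acid synthesis and lipid assembly 7 rose and 4 fell (median 0.06). Among all named genes 26.2% rose and 20.8% fell, and nothing is read from these counts. In 6 of the 27 genes every control array lay under the background mark. ELOVL3 and ELOVL4, named here outside the rule for names, are among these 6 and were called lower. HACD3, a dehydratase of chain elongation, rose by 0.67, OXSM, a synthase of mitochondrial fatty acids, by 0.56 and THRSP, a lipogenic protein, by 0.68. ACSL5, another enzyme that activates long chains, measured 8.96, 9.39 and 9.36 against 7.70, 7.95 and 7.84 (log2 change -1.40, SE 0.13; limma adjusted p = 0.00025). Of other sources of NADPH, looked at beside ME1 after their values were seen, IDH1 changed by 0.73 (adjusted p = 0.0518) and PGD by 0.04, neither called. In fatty acid oxidation 7 of 15 genes rose and 1 fell (median 0.11), where 26.2% and 20.8% of all named genes did. CPT2, which brings fatty acids into the mitochondrial matrix, rose by 0.96, ACAA2 by 0.73 and ETFDH by 0.96, while PPARGC1A, a coactivator of oxidative genes, fell by 1.29 on the log2 scale (adjusted p = 0.00372).

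**Figure D3:**
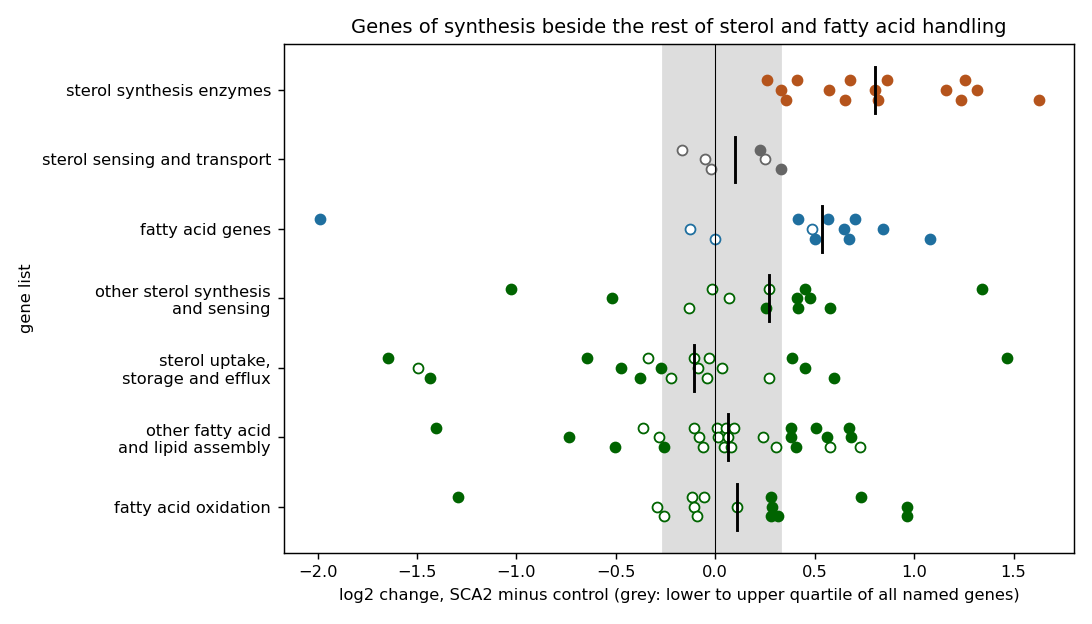
Log2 change (SCA2 minus control, x axis) of each gene (points, filled where limma adjusted p was under 0.05) in 7 lists (rows), with the list median as a black bar and the span from the lower to the upper quartile of all named genes in grey. All 15 sterol enzymes lie to the right of 0 with a median of 0.80, while the 19 genes of uptake, storage and efflux spread to both sides with a median of -0.11.

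Markers of other cells moved with the group on the same arrays. Among all named genes 26.2% rose and 20.8% fell, and the counts of markers are read against these shares. Of 18 fibroblast markers 13 rose and 3 fell, with a summed intensity of 32393 to 34414 on the control arrays and 57141 to 58236 on the SCA2 arrays. Only PDGFRA among these markers had any array below the background mark. Of 13 B cell markers 11 fell and 0 rose, with sums of 26346 to 27590 against 9235 to 11439. Of 9 epithelium markers 6 fell, with sums of 8707 to 13907 against 2621 to 5055, and of 10 macrophage markers 7 fell, with sums of 12298 to 15259 against 3738 to 5529. Adipocyte markers fell in 4 of 7 genes, from sums of 915 to 923 to sums of 337 to 355. Of 10 T cell markers 8 fell and 1 rose (6311 to 7506 against 2732 to 2807), and of 5 erythroid and thrombocyte markers 5 fell (33412 to 37266 against 24424 to 25532). The part of these shifts in the sterol and fatty acid values was not tested, and RNA of bursal cells and of the monolayer cannot be told apart in these samples.

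**Figure D4:**
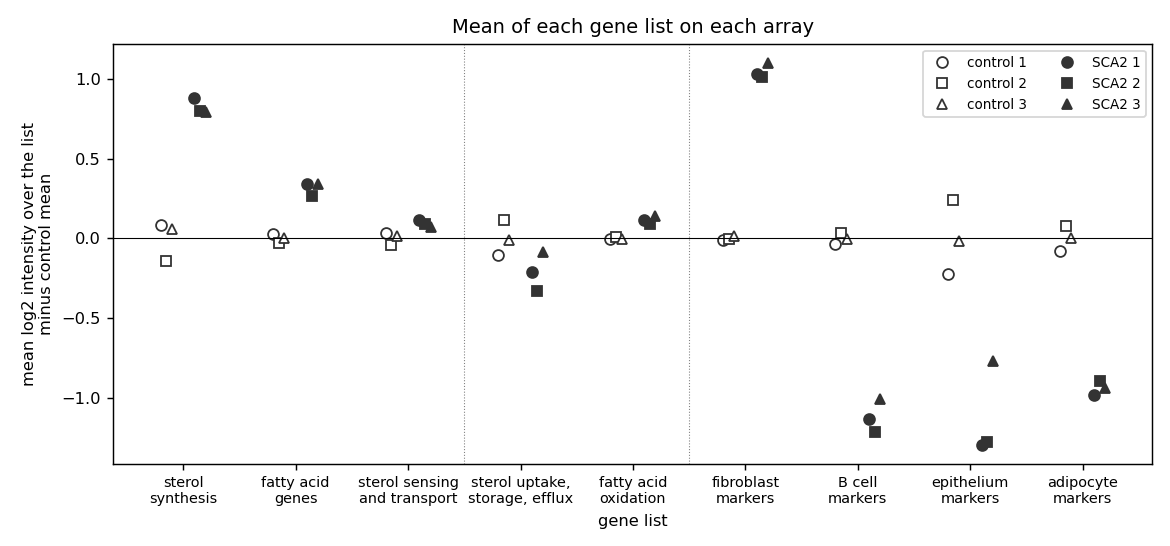
Mean log2 intensity of a gene list minus its control mean (y axis) on each array (open symbols control, filled symbols SCA2, shape by replicate number) for 9 gene lists (x axis). Sterol enzymes stand at 0.79 to 0.88 and fibroblast markers at 1.01 to 1.10 on the SCA2 arrays, while B cell, epithelium and adipocyte markers lie below the control mean.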

How the data were processed

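RNA of 3 control and 3 SCA2 cultures was measured on Affymetrix chicken arrays from 10 µg of total RNA each. The deposited table holds linear intensity values, 1 for each probe set on each array. Per the submitters' processing notes they came from RMA (version not given in the sources used here), which makes array distributions alike and hides any shift shared by all genes. Of 38535 probe sets, 96 array controls were left out and no other filter was set. Names came from the platform annotation, updated by gene identifier through RefSeq's gene table (27168 probe sets with 1 symbol, 177 with several, 11094 with none), and a set with several symbols was given no name.

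After log2, a linear model with 1 term for the group was fitted with limma 3.58.1 (lmFit, eBayes) in R 4.3.3, and p-values were adjusted by Benjamini-Hochberg over 38439 probe sets. Plots used matplotlib 3.10.9 under Python 3.11.15. The procedure was tested on simulated arrays. The titles call the replicates biological, without separate birds being stated, so the p-values reflect only how these arrays spread, which may be technical. No test reaches an exact permutation p below 0.1 with 3 against 3 arrays. Replicate numbers are shared between the groups. Deviations of same-numbered arrays correlated at 0.41, 0.12 and 0.04, and those of differently numbered arrays at -0.45 to 0.33. Whether the numbers mark pairs cannot be told from these values. The main fit did not take them as pairs, and a fit with the replicate number as a block is among the alternatives. No column was a duplicate of another. No batch is labelled, and one that went with the groups cannot be told apart from SCA2.

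Members were listed by gene name, and members and lists were chosen with earlier results of these data known, and a list is described by its counts and median without a test. The rule for names was all members, array values for those called and for the regulators, and up to 4 called genes of each neighbouring list by smallest p. Array values of ACSS2, ELOVL5 and ACSL1, which were not called, are given outside that rule. Alternatives were the replicate block, 3 other normalizations, 2 filters on dim probe sets, other variance models, array weights, a threshold of 0.01, 2 other ways to join probe sets and leaving out each array.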

Additional observations from a re-analysis of the deposited data

How the results depend on the processing

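All 18 alternatives left the sterol and fatty acid medians positive and sterol above fatty acid, and 18 of the 26 called members kept their call in each alternative that tested them. Leaving out arrays gave 20 to 23 members higher, 1 lower, 12 to 14 sterol enzymes and 8 to 9 fatty acid genes higher, 9875 to 13083 probe sets called in all, a sterol median of 0.71 to 0.86, a fatty acid median of 0.51 to 0.60 and a difference between them of 0.17 to 0.32. Cyclic loess gave a sterol median of 0.70 and a difference of 0.18, and the cause was not tested. A threshold of 0.01 gave 8381 called probe sets in place of 13557, since it is stricter, and 18 members higher. The calls lost at 0.01 were those of ACAT2, FDFT1, CYP51A1, INSIG1, STARD4, SCD and ELOVL1. Genes lower numbered 2 in place of 1 with unmoderated statistics, where SREBF1 was added, and with the mean of all probe sets or the most variable one, where ACSL1 was added. With the most variable probe set ACAT2 changed by -0.030 and SREBF1 by 0.32, since other probe sets then stood for them. The replicate block gave 25 members higher and 14531 probe sets called. It ended the call of STARD4 (limma adjusted p = 0.0663), added that of ACSS2 (0.0122) and changed no other call among members. CYP51A1 was not tested where only probe sets above the median mean were kept. Centring on array medians put 56.5% of calls on the higher side, against 51.6%, and no setting moved the median of all named genes by over 0.1. Dim probe sets, such as that of CYP51A1, are limited by background, and the number of arrays limits all values.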
